A study of Homo sapiens with 24 samples.

Results

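The RAP genes are a small family of GTPase genes together with the genes for proteins that switch them on and off. Here 10 of them were followed: the GTPases RAP1A, RAP1B, RAP2A, RAP2B and RAP2C, the exchange factors RAPGEF1, RAPGEF2 and RAPGEF6, and the GTPase-activating proteins SIPA1 and SIPA1L1. They were chosen by name, as the probe sets whose only gene symbol in the platform annotation was 1 of these 10, out of 19775 genes measured. They had 32 of the 54613 probe sets that were not controls, and 26 of the 32 were bright enough to be tested. Each of the 10 genes kept at least 1 of the 26.

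The study used P3HR1, an established Burkitt lymphoma B-cell line that carries Epstein-Barr virus, with a doxycycline-inducible vector named pRTS1. The miR-28 cells made green fluorescent protein (GFP) together with the miR-28 precursor, and the control cells made GFP alone. Each vector was carried by 2 bulk populations, A and B, and each population was induced 3 times for 24 h and 3 times for 12 h, which gave 4 groups of 6 arrays: miR-28 cells at 24 h, control cells at 24 h, miR-28 cells at 12 h and control cells at 12 h. All 4 groups carried the vector and received doxycycline, at 0.1 ug/ml in the treatment labels and 1 ug/ml in the source labels. Arrays of uninduced cells were not analysed here, so a difference between populations that was present before induction and an effect of miR-28 cannot be told apart. Nor do the labels say that a population of one letter was made beside the population of the same letter in the other vector. In RNA from bulk cells, fewer cells that hold a transcript and less of it per cell cannot be told apart either.

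RAP proteins cycle between a GDP-bound resting form and a GTP-bound active form. Exchange factors load them with GTP, and GTPase-activating proteins speed the hydrolysis that switches them off. In lymphocytes active RAP1 is best known for turning integrins to their adhesive form after antigen receptor or chemokine signals, while RAP2 proteins act through other effectors, among them kinases of the MAP4K family. A microRNA pairs with target transcripts mainly through its seed, and usually lowers their level or translation. The miR-28 precursor is processed into miR-28-5p and miR-28-3p. The 5p sequence was not in the reference used here, so it is not shown. The level of either strand was not analysed, and no seed match in RAP1B or another member was looked up. The RefSeq entry for the 3p strand lies on the plus strand of GRCh38.p14 at chr3:188688834-188688855. It is shown with its seed, bases 2 to 8, in capitals.
hsa-miR-28-3p: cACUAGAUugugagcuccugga
Of 2370 mature human microRNA names in that reference, 0 others shared the 3p seed. RAP1B has been published as a target of miR-28 in lymphoma B cells, in work that rested in part on these arrays, so its direction here is not independent evidence.

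The values are MAS5 intensities, a linear measure of how brightly a probe set's spots shone, with each array scaled by the authors to the same trimmed mean. The median intensity of the 24 arrays lay between 73.4 and 93.4. RNA integrity was read from the ACTB control probe sets as the log2 ratio of their 3' to their 5' signal. That ratio exceeded 1 on a pair of arrays, at 1.59 for control B2 at 24 h and 1.05 for miR-28 B2 at 12 h, where B2 is induction 2 of population B. The same member probe sets were called in every comparison without them. All 6 measured B-cell markers passed the filter, with a median intensity of 9637. The markers of other cell types were dim, with medians between 30.5 in the fibroblast and epithelial list and 66.3 in the T-cell list. Differences are given as log2 changes of intensity plus 8, ± the standard error, with adjusted p from limma over all 27306 probe sets tested, and a probe set was called at an adjusted p under 0.05.

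At 24 h RAP1B was lower and the exchange factor gene RAPGEF1 was higher in miR-28 than in control cells, and these were the 2 called among the 26 member probe sets. Over all probe sets limma called 2.75 percent at 24 h, 1.27 percent higher and 1.48 percent lower. At 12 h limma called 0 of the 26, with 2 at an unadjusted p under 0.05, which 8.02 percent of all probe sets reached. Of all probe sets it called 0.165 percent at 12 h, 0.0439 percent higher and 0.121 percent lower. That count, 45 probe sets, was 21, 29 or 26 without control A2, A1 or B1 at 12 h and 25 without miR-28 A3 at 12 h. The members as a group sat near the rest of the array: their median change was 0.03 at 24 h and -0.06 at 12 h, against 0.01 and 0.00 over all probe sets tested. At 24 h 16 of the 26 were higher and 10 lower, and after median centring of the arrays 17 were higher and 9 lower. At 12 h 11 were higher and 15 lower. Unadjusted p under 0.05 was reached by 5 of the 26 at 24 h, where 15.7 percent of all probe sets reached it.

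**Figure D1:**
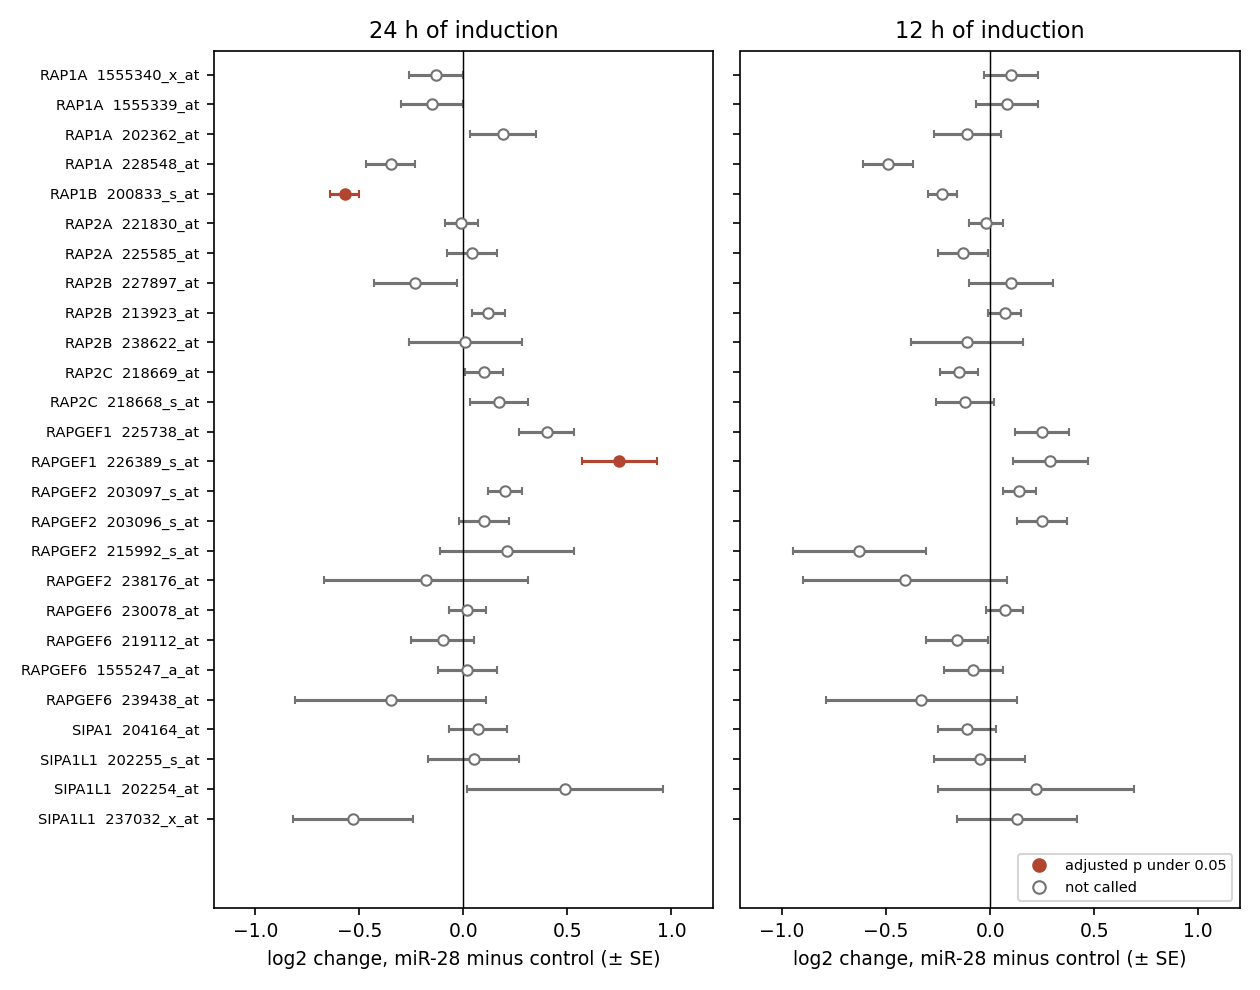
Log2 change of the 26 member probe sets that were bright enough to be tested, miR-28 minus control cells, at 24 h (left) and 12 h (right), with bars of ± 1 standard error (6 arrays against 6). Filled points passed an adjusted p under 0.05 in limma; these are RAP1B at -0.57 and RAPGEF1 226389_s_at at 0.75, both at 24 h, and most other bars cross or lie close to 0.

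RAP1B encodes one of the 2 RAP1 proteins and is the one best known from platelets and B cells. It was represented by 1 probe set, 200833_s_at. The suffix s marks a probe set shared by several transcripts, so what it measured is less certain. At 24 h its intensity was lowest at 10523, had a median of 11314 and was highest at 12809 in miR-28 cells, against 15761, 16652 and 19935 in control cells. The groups did not overlap, and every miR-28 array lay below every control array. The highest control value, 19935, was on control B2, which had a raised ACTB ratio, and the next highest was 17470. Full separation of the groups was seen for 2.46 percent of all probe sets tested at 24 h, with 1.36 percent below control. The means were 11536 ± 896 in miR-28 cells and 17153 ± 1472 in control cells (SD, n = 6 each). RAP1B was lower than in control cells by 0.57 ± 0.07 on the log2 scale (limma adjusted p 8.59e-05), which is 0.67 of the control level.

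At 12 h the difference was in the same direction and smaller. RAP1B had a lowest value of 12488, a median of 13562 and a highest value of 14685 in miR-28 cells, against 14584, 15521 and 18449 in control cells. The groups overlapped by 1 miR-28 array that lay above the lowest control array, and the other 5 lay below it. The change was -0.23 ± 0.07 and did not pass (limma adjusted p 0.310, unadjusted 0.00480). The highest control value, 18449, came from population A induction 2 and stood apart from the other 5, which ended at 15804.

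The 4 group means of RAP1B ran in the order miR-28 at 24 h (11536), miR-28 at 12 h (13539), control at 12 h (15876) and control at 24 h (17153). None of the 3 steps between neighbours in that order passed on its own in limma. In miR-28 cells the 24 h level minus the 12 h level was -0.23 ± 0.08 (limma adjusted p 0.114), and in control cells it was 0.11 ± 0.08 (adjusted p 0.5). The difference between the effect at 24 h and that at 12 h was -0.34 ± 0.11, with an unadjusted p of 0.00401 but a limma adjusted p of 0.680. For that difference limma called 0 percent of all probe sets, with 1588 at an unadjusted p under 0.05, and 0 of the 26 member probe sets. A larger difference from control at 24 h than at 12 h was thus not established over all probe sets.

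**Figure D2:**
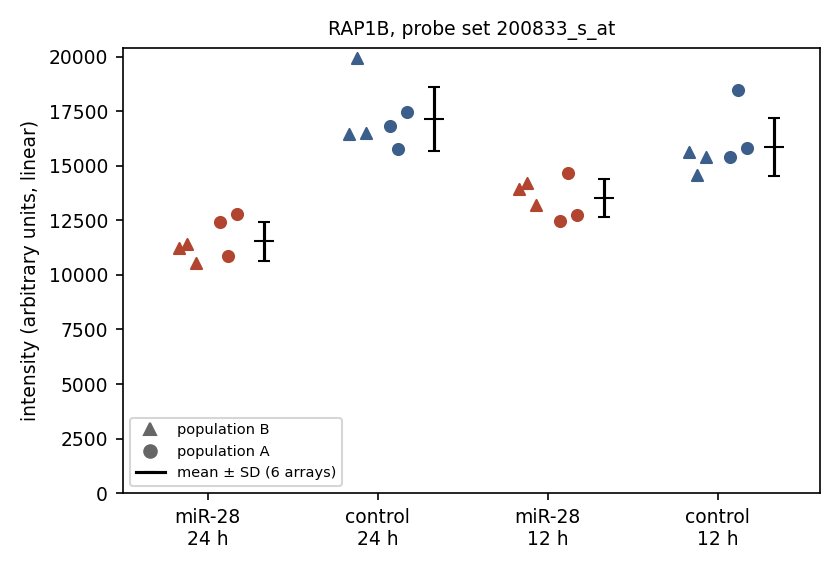
RAP1B intensity (linear, arbitrary units) on each array, by group, with triangles for population B, circles for population A, and the mean ± SD of 6 arrays beside them. All 6 miR-28 arrays at 24 h, between 10523 and 12809, lie below all 6 control arrays at 24 h, between 15761 and 19935, while 1 miR-28 array at 12 h reaches into the control range.

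In both letters RAP1B averaged lower in the miR-28 population than in the control population, though the letters are not known to pair populations. At 24 h population B averaged 11050 in miR-28 and 17625 in control cells, a log2 difference of -0.67, and population A averaged 12023 and 16682, a difference of -0.47. Since all 6 miR-28 arrays lay below all 6 control arrays, the 3 against 3 of either letter had to separate too, which adds no further evidence. At 12 h the differences were -0.14 in population B and -0.31 in population A. The effect in B minus that in A at 24 h was -0.19 ± 0.15 (limma adjusted p 0.867), in a comparison where limma called 0 percent of all probe sets (1719 at an unadjusted p under 0.05). The call at 24 h was kept in 34 of 37 alternatives, among them quantile normalization and median centring. It was lost with only population B (limma adjusted p 0.0977), with only population A (0.288) and with population means as the unit (0.236). Leaving out any 1 of the 24 arrays gave changes between -0.60 and -0.53.

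RAP1A encodes a protein nearly identical to that of RAP1B, and its 4 probe sets, all past the filter, disagreed. The brightest, 1555340_x_at, averaged 76824 ± 13106 in miR-28 cells and 83430 ± 11350 in control cells at 24 h (SD, n = 6 each), a change of -0.13 ± 0.13. Its values ran between 60016 and 98481 in miR-28 cells and between 70379 and 102649 in control cells, so the groups overlapped widely. The suffix x marks a probe set whose probes may also match other sequences. The suffix s, carried by both probe sets called at 24 h, marks one shared by several transcripts. What each such probe set measured is less certain. Probe set 1555339_at gave -0.15 ± 0.15 at 24 h, and 202362_at gave 0.19 ± 0.16. At 12 h the same 3 probe sets gave 0.10 ± 0.13, 0.08 ± 0.15 and -0.11 ± 0.16.

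The dimmest RAP1A probe set, 228548_at, was the one that stood apart at 12 h. It had a lowest value of 267, a median of 341 and a highest value of 360 in miR-28 cells, against 405, 459 and 507 in control cells. Every miR-28 array lay below every control array, which was so for 0.37 percent of all probe sets at 12 h. Separation in either direction was seen for 0.67 percent. The change was -0.49 ± 0.12 but did not pass (limma adjusted p 0.119, unadjusted 0.000568). Of 36 alternatives it passed in 1, the stricter filter on low values (0.0432). At 24 h it was -0.35 ± 0.12 (limma adjusted p 0.145), with means of 389 ± 68.2 in miR-28 cells and 495 ± 87.4 in control cells and overlapping groups. Its differences were -0.51 in population B and -0.48 in population A at 12 h, and -0.48 and -0.21 at 24 h. So 1 of the 4 RAP1A probe sets was lower at both times without passing, and the 3 brighter ones gave small changes of either sign.

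RAP2A, RAP2B and RAP2C encode the RAP2 proteins, which differ from RAP1 in the effectors they bind. For RAP2A, 2 of 5 probe sets passed the filter. Its brightest, 221830_at, averaged 3644 ± 467 in miR-28 and 3663 ± 292 in control cells at 24 h (SD, n = 6 each), a change of -0.01 ± 0.08, and gave -0.02 ± 0.08 at 12 h. The other, 225585_at, gave 0.04 ± 0.12 at 24 h and -0.13 ± 0.12 at 12 h. In neither probe set did the 2 kinds of cells separate. The remaining 3 RAP2A probe sets had group means between 18.2 and 89.3 and were too dim to be tested.

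RAP2B had 3 of 4 probe sets past the filter, and RAP2C had 2 of 2. The brightest RAP2B probe set, 227897_at, spread widely at 24 h, between 2327 and 6865 in miR-28 cells and between 4144 and 8709 in control cells, and gave -0.23 ± 0.20. It was lower in population B (-0.76) and higher in population A (0.30), and the highest value, 8709, was on the control array with the raised ACTB ratio. The effect in B minus that in A was -1.06 ± 0.38, with a limma adjusted p of 0.780 (unadjusted 0.0123), so the difference between populations did not pass. The other RAP2B probe sets, 213923_at and 238622_at, gave 0.12 ± 0.08 and 0.01 ± 0.27 at 24 h. RAP2C gave 0.10 ± 0.09 on 218669_at and 0.17 ± 0.14 on 218668_s_at at 24 h, and -0.15 ± 0.09 and -0.12 ± 0.14 at 12 h. None of these RAP2B and RAP2C values passed, with limma adjusted p no lower than 0.541 at 24 h.

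The change of RAP1B was then set against that of each other GTPase within the same arrays, which leaves out any scaling shared by an array. On each array the log2 value of the other gene's brightest probe set was subtracted from that of RAP1B, and the differences were compared between the 2 kinds of cells by exact two-sided permutation tests, with p adjusted over the 8 comparisons. At 24 h the RAP1B change minus the RAP2C change was -0.67 (SD 0.16 in each group, n = 6 each; exact permutation adjusted p 0.0173), and every miR-28 array lay below every control array. The difference was -0.56 against RAP2A (exact permutation adjusted p 0.0173) and -0.45 against RAP1A (0.0346). Against RAP2B it was -0.34 and did not pass (0.190). The unadjusted p against RAP2C, 0.00216, is the smallest that an exact permutation of 6 arrays against 6 can give. The call against RAP1A was lost (0.0519) on leaving out any 1 of 9 arrays of 24 h, which were control A1, A2, A3, B1 and B2 and miR-28 A2, A3, B1 and B3. That against RAP2B was gained without miR-28 B2 at 24 h (-0.53, exact permutation adjusted p 0.0260).

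At 12 h 0 of the 4 differences passed. They were -0.33 against RAP1A and -0.32 against RAP2B (exact permutation adjusted p 0.0606 each), -0.21 against RAP2A (0.0519) and -0.08 against RAP2C (0.528). The unadjusted p was under 0.05 for 3 of the 4, all but RAP2C. Leaving out single arrays brought each of those 3 under 0.05. For RAP1A these were control A3 (0.0260) or B2 (0.0404) at 12 h. For RAP2A they were control B2 (0.0115) or miR-28 A2 (0.0346) at 12 h, or miR-28 B2 at 24 h (0.0416), and for RAP2B control B2 (0.0346) or miR-28 B1 (0.0433) at 12 h. The choice of probe set mattered for RAP1A and RAP2B. At 24 h the difference from RAP1A was -0.76 on 202362_at (exact permutation adjusted p 0.0152 over 14 such comparisons), -0.42 on 1555339_at (0.0808) and -0.23 on 228548_at (0.252). The difference from RAP2B was -0.69 on 213923_at (0.0152) and -0.58 on 238622_at (0.125). All 11 differences at 24 h, over every GTPase probe set past the filter, were below 0. The 11 share the same RAP1B values, and some share a gene, so their signs are not independent. This set of probe sets was added after the data had been seen.

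**Figure D3:**
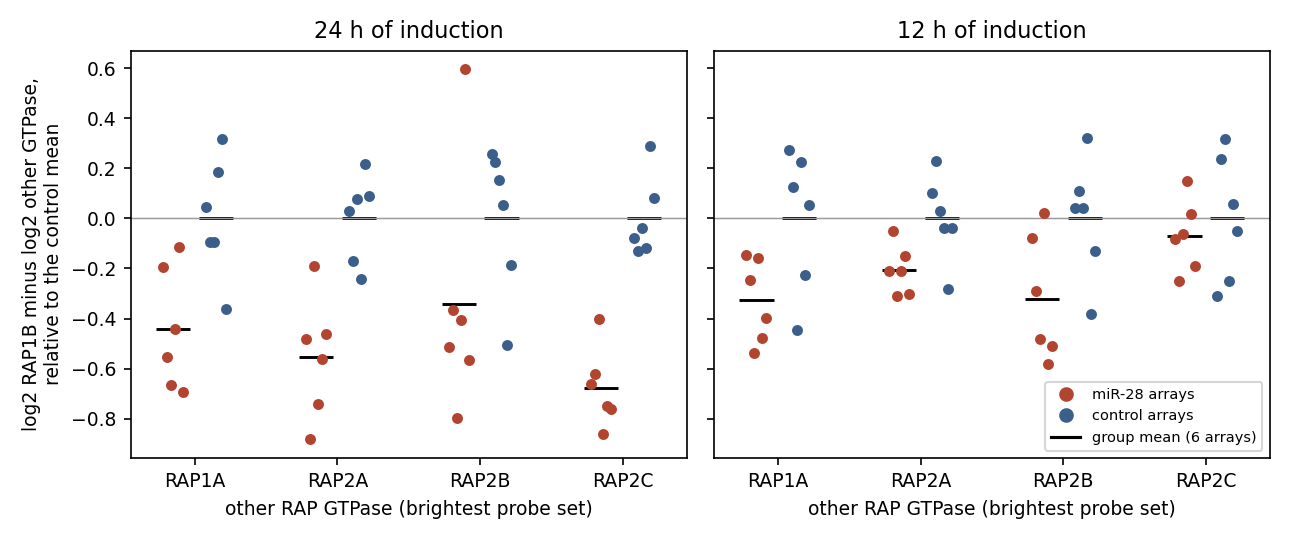
Log2 RAP1B minus log2 of the brightest probe set of each other RAP GTPase, on each array, relative to the control mean, at 24 h (left) and 12 h (right); miR-28 arrays stand left of control arrays and short lines are means of 6. At 24 h the miR-28 means lie at -0.45 for RAP1A, -0.56 for RAP2A, -0.34 for RAP2B and -0.67 for RAP2C, and the 2 groups separate fully for RAP2C.

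RAPGEF1 encodes an exchange factor that is brought to activated receptors by CRK adaptor proteins and loads RAP1 with GTP. Of its 3 probe sets 2 passed the filter, and both were higher in miR-28 cells. On 226389_s_at the values at 24 h had a lowest of 285, a median of 356 and a highest of 457 in miR-28 cells, against 152, 216 and 281 in control cells. The groups did not overlap, though the nearest arrays were only 285 in miR-28 and 281 in control cells. Separation above control was seen for 1.11 percent of all probe sets at 24 h. The means were 360 ± 62.4 in miR-28 cells and 214 ± 55.2 in control cells (SD, n = 6 each). RAPGEF1 was thus higher than in control cells by 0.75 ± 0.18 (limma adjusted p 0.0229).

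The brighter RAPGEF1 probe set, 225738_at, pointed the same way and did not pass. It had a lowest value of 481, a median of 579 and a highest of 792 in miR-28 cells at 24 h, against 393, 426 and 587 in control cells. All 6 miR-28 arrays lay above the control mean, but the ranges overlapped. The change was 0.40 ± 0.13 (limma adjusted p 0.119, unadjusted 0.00709), with means of 608 ± 130 and 455 ± 70.2 in miR-28 and control cells. At 12 h the changes were 0.29 ± 0.18 on 226389_s_at and 0.25 ± 0.13 on 225738_at (limma adjusted p 0.750 and 0.693). The effect at 24 h minus that at 12 h was 0.46 ± 0.27 on 226389_s_at (limma adjusted p 0.901). On that probe set the 24 h level minus the 12 h level was -0.34 ± 0.19 in control cells (limma adjusted p 0.383). In miR-28 cells it was 0.12 ± 0.19 (limma adjusted p 0.822).

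Within populations, 226389_s_at differed by 0.86 in population B and 0.65 in population A at 24 h, and by -0.10 and 0.68 at 12 h. On 225738_at the differences were 0.33 and 0.47 at 24 h, and 0.16 and 0.34 at 12 h. The call on 226389_s_at was less firm than that of RAP1B: it was kept in 27 of 35 alternatives. It was lost on leaving out 1 of 4 arrays of 24 h, miR-28 B2 (limma adjusted p 0.0566), miR-28 B3 (0.0633), control A2 (0.0560) or control B1 (0.0586). It was lost too when every probe set was tested (0.0745), with only population B (0.256), with only population A (0.462) and with population means as the unit (0.304).

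**Figure D4:**
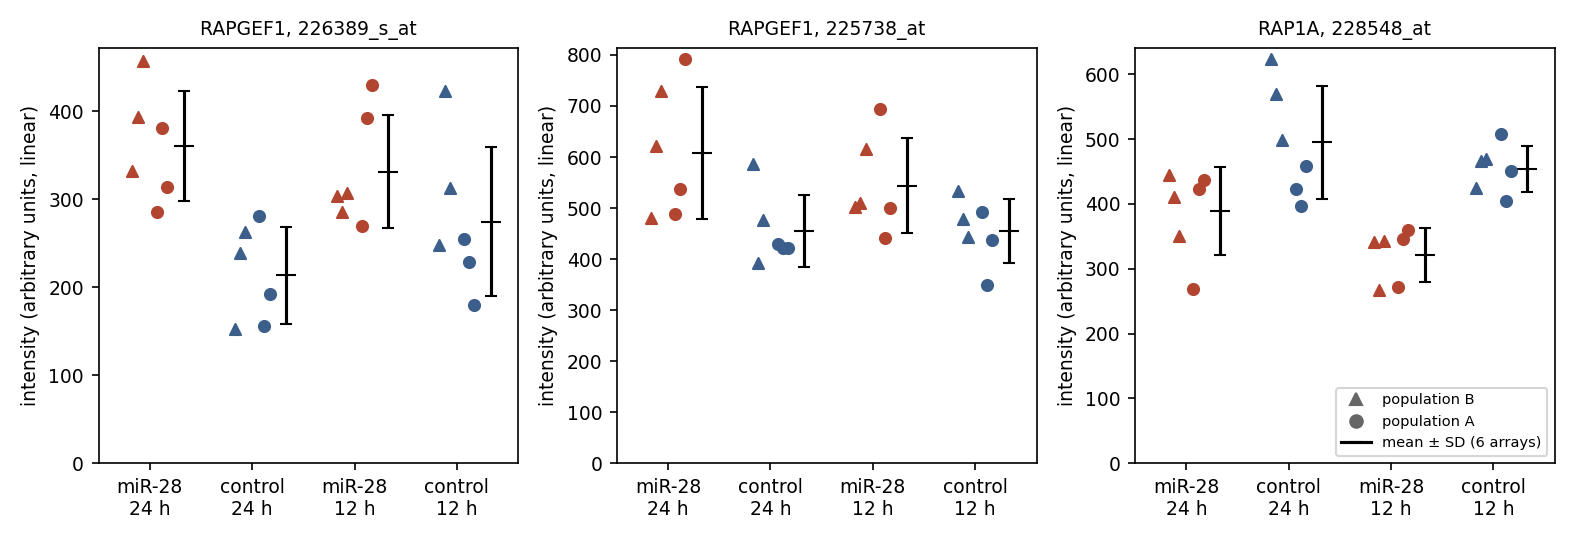
Intensity (linear, arbitrary units) on each array for both tested RAPGEF1 probe sets and for RAP1A probe set 228548_at, by group, with triangles for population B, circles for population A, and the mean ± SD of 6 arrays. For RAPGEF1 226389_s_at the miR-28 arrays at 24 h start at 285, just above the highest control array at 281; for RAP1A 228548_at the miR-28 arrays at 12 h end at 360, below the lowest control array at 405.

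RAPGEF2 and RAPGEF6 are related exchange factors with a PDZ domain that act on RAP1 and RAP2. The brightest RAPGEF2 probe set, 203097_s_at, had a lowest value of 4142, a median of 4398 and a highest of 5121 in miR-28 cells at 24 h, against 3576, 3963 and 4186 in control cells. All 6 miR-28 arrays lay above the control mean, and the ranges overlapped narrowly. The change of 0.20 ± 0.08 did not pass (limma adjusted p 0.178, unadjusted 0.0154), and at 12 h it was 0.14 ± 0.08. The second, 203096_s_at, gave 0.10 ± 0.12 at 24 h and 0.25 ± 0.12 at 12 h. The 2 dim RAPGEF2 probe sets had the larger standard errors of the 4 tested for that gene, with 0.21 ± 0.32 and -0.18 ± 0.49 at 24 h and -0.63 ± 0.32 and -0.41 ± 0.49 at 12 h. RAPGEF6 hardly differed on its brightest probe set, 230078_at, with 3393 ± 479 in miR-28 and 3325 ± 310 in control cells at 24 h (0.02 ± 0.09), and 0.07 ± 0.09 at 12 h. Its other 3 probe sets ran between -0.35 and 0.02 at 24 h and between -0.33 and -0.08 at 12 h, and none passed in limma.

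SIPA1 and SIPA1L1 encode GTPase-activating proteins, which return RAP to its resting form. SIPA1, known from lymphocytes, had 1 probe set, with 706 ± 138 in miR-28 and 671 ± 122 in control cells at 24 h (SD, n = 6 each), a change of 0.07 ± 0.14, and -0.11 ± 0.14 at 12 h. SIPA1L1 is known mainly from the synapses of rodent neurons. Its brightest probe set, 202255_s_at, gave 0.05 ± 0.22 at 24 h and -0.05 ± 0.22 at 12 h. The dimmer 202254_at and 237032_x_at gave 0.49 ± 0.47 and -0.53 ± 0.29 at 24 h. The 4 probe sets of both genes did not pass in limma at either time, and with standard errors up to 0.47 a moderate change of the dim ones could not have been seen.

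The change with time was read in each kind of cell. In miR-28 cells limma called 1 of the 26 member probe sets, the RAP2A probe set 225585_at, higher at 24 h. Of all probe sets it called 1.88 percent in those cells, 0.981 percent higher and 0.901 percent lower. In control cells limma called 0 of 26, with 3 at an unadjusted p under 0.05, which 16.7 percent of all probe sets reached. It called 3.09 percent of all probe sets in control cells, 1.59 percent higher and 1.5 percent lower. RAP2A on 225585_at had a lowest value of 2743, a median of 3127 and a highest of 3811 at 24 h, against 1785, 2305 and 3018 at 12 h in miR-28 cells. It rose by 0.47 ± 0.12 with time in those cells (limma adjusted p 0.0460), although the ranges overlapped. In control cells the same probe set gave 0.30 ± 0.12 (adjusted p 0.193), and the difference between the 2 kinds of cells was 0.17 ± 0.17 (adjusted p 0.940), so a change with time particular to miR-28 cells was not shown. The call was close to the threshold and was kept in 15 of 36 alternatives. With the replicate number as a block it was 0.0549. Leaving out single arrays gave adjusted p between 0.0208 and 0.106. The call was lost without any 1 of 16 arrays, which were miR-28 A2, A3, B1 and B3 and control A1, A3 and B1 at 24 h, and miR-28 A1, A2, A3, B1 and B3 and control A2, A3, B1 and B2 at 12 h. The brighter 221830_at gave 0.19 ± 0.08 in miR-28 and 0.18 ± 0.08 in control cells (adjusted p 0.268 each).

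Beyond the 10 members, 53 genes of RAP signalling were followed by role, each by its brightest probe set. Of these 47 had a probe set of 1 symbol, and 39 of the 47 were past the filter; the others were not analysed here. Limma called 0 of 39 at 24 h, with 8 at an unadjusted p under 0.05, and 0 of 39 at 12 h, with 4. By the same choice of 1 probe set a gene, 3.79 percent of all genes were called at 24 h and 0.264 percent at 12 h. Of all probe sets tested, 15.7 percent reached an unadjusted p under 0.05 in limma at 24 h and 8.02 percent at 12 h. The median change was 0.03 at 24 h and -0.02 at 12 h, against 0.02 and 0.01 over all genes.

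In each role the gene with the largest limma statistic at 24 h is given as an example, and none of them passed. Among exchange factors RASGRP3, which is activated by diacylglycerol downstream of the B-cell receptor, gave 0.27 ± 0.11 (limma adjusted p 0.196), with 1243 ± 162 in miR-28 and 1029 ± 138 in control cells. Among GTPase-activating proteins RAP1GAP2 gave 1.16 ± 0.40 (adjusted p 0.125) at dim means of 146 in miR-28 and 71.3 in control cells. Among upstream signalling genes the ubiquitin ligase gene CBLB gave 0.27 ± 0.10 (adjusted p 0.153), and the GDP dissociation stimulator gene RAP1GDS1 gave 0.00 ± 0.08.

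RASSF5, whose protein RAPL carries active RAP1 to the integrin LFA-1, came closest to the threshold among the RAP1 effectors. It averaged 3674 ± 473 in miR-28 and 3066 ± 121 in control cells at 24 h (SD, n = 6 each), a change of 0.25 ± 0.08 (limma adjusted p 0.0828), and it passed with median centring, with a stricter filter and with 1 probe set a gene. For the adaptor gene SKAP2, listed with the RAP1 effectors, the 6 miR-28 arrays lay below the 6 control arrays, with a change of -0.32 ± 0.11 (adjusted p 0.119). Such separation below control was seen for 1.36 percent of all probe sets at 24 h. The RAP2 effector kinase gene MAP4K4 gave 0.17 ± 0.11 (adjusted p 0.502). Of the integrin genes, at which RAP1 signals end, ITGB7 gave 0.41 ± 0.17 (adjusted p 0.242) at 24 h. ITGB2, the beta chain of LFA-1, gave -0.09 ± 0.13 at 24 h but -0.53 ± 0.13 at 12 h, with 804 ± 115 in miR-28 and 1159 ± 105 in control cells, a limma adjusted p of 0.0954 and every miR-28 array below every control array, as for 0.37 percent of all probe sets at 12 h. SKAP2 and ITGB2 were picked from the 39 after their values had been seen.

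**Figure D5:**
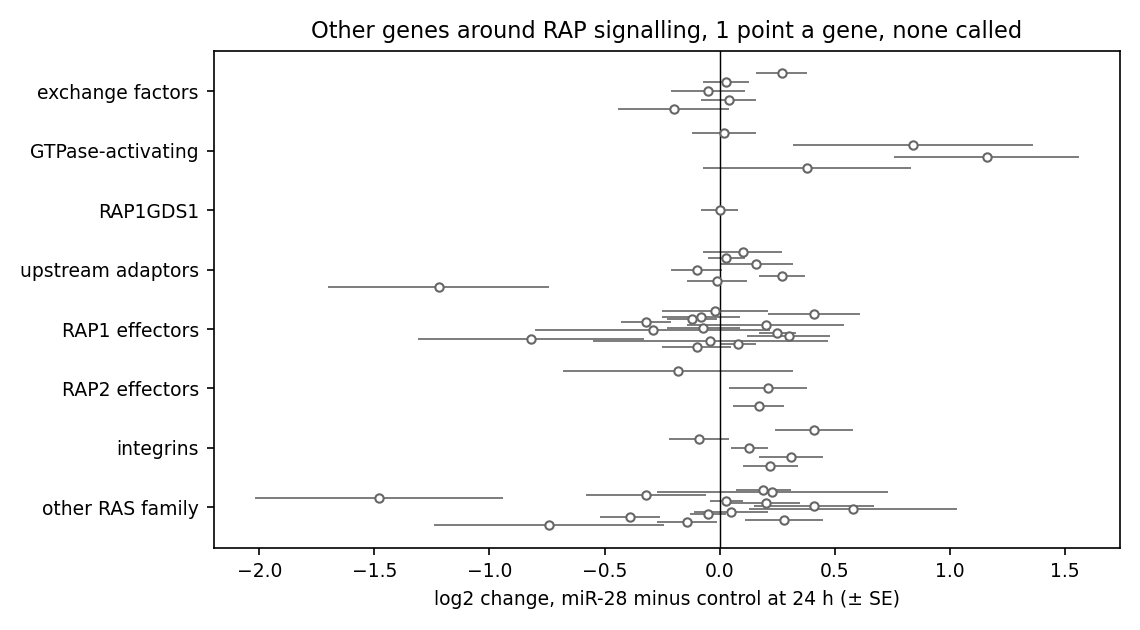
Log2 change at 24 h, miR-28 minus control cells, of genes around RAP signalling and of other RAS family GTPases, 1 point a gene by its brightest probe set past the filter, with bars of ± 1 standard error (6 arrays against 6), grouped by role. Points lie on both sides of 0 in most roles, none passed an adjusted p under 0.05, and the widest bars belong to dim genes.

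Other small GTPases of the RAS family were read as neighbours of RAP1B in sequence. Of 22 listed, 19 had a probe set of 1 symbol and 14 were past the filter; the others were not analysed here. Limma called 0 of the 14 at 24 h, where 3.79 percent of all genes were called, and the median change of the 14 was 0.04. An unadjusted p under 0.05 was reached by 2 of the 14, and by 15.7 percent of all probe sets tested. NKIRAS2, which encodes an inhibitor of NF-kB signalling and had the largest statistic, gave -0.39 ± 0.13 (limma adjusted p 0.127), with 831 ± 80.3 in miR-28 and 1093 ± 140 in control cells. RALA, RHEB and RRAS2, all brighter, gave -0.05 ± 0.08, 0.03 ± 0.07 and 0.19 ± 0.12, and were named after their values had been seen.

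The genes whose level was most like that of RAP1B were ranked by Pearson correlation over the 24 arrays, among 11379 other genes. The first 5 were MAPRE1 (r 0.904), VAMP7 (0.887), CBFB (0.876), FAM83D (0.875) and SNUPN (0.867). The 24 arrays fall into 4 groups, and after the group means were taken out the same 5 had r of 0.45, 0.65, 0.59, 0.46 and 0.47, so much of the likeness was that of the group means. VAMP7 averaged 2652 in miR-28 and 3346 in control cells at 24 h, a change of -0.33 ± 0.07, and FAM83D averaged 1752 and 2453, a change of -0.48 ± 0.07. The changes at 24 h were larger than that of RAP1B (-0.57) for MAPRE1 (-0.82 ± 0.09), CBFB (-0.75 ± 0.10) and SNUPN (-0.63 ± 0.07). All 5 genes were called lower at 24 h in limma, as were 1.48 percent of all probe sets. They were picked for following RAP1B over these same arrays, group means included, so these calls were largely built into the choice. Among the members, the RAPGEF1 probe sets ran most against RAP1B, with r of -0.69 on 225738_at and -0.66 on 226389_s_at, and RAP1A 228548_at ran most with it (0.49). The group means were not taken out of these member values, which thus include the group differences already given. These correlations share arrays and their scaling and are descriptions without a test.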

How the data were processed

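Total RNA (6 ug per sample, per the labels' protocols) was hybridised to 24 Affymetrix arrays. The authors deposited probe-set intensity on a linear scale, made with MAS5 per the submitters' processing notes, with version and settings not given in the sources used here. The 2 percent trimmed mean of each deposited column was 500.07 to 500.08, so the scaling was kept. An array has no read depth; the number of arrays limits the precision.

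Of 54675 probe sets, 62 controls were left out. Platform symbols were brought up to date with RefSeq by gene number. A probe set with no symbol (11721) or more than 1 (1801) was tested but named no gene. Values were log2(intensity + 8), a scale that understates changes of dim genes. Probe sets with a mean above 6.108, the median of all, were tested (27306). The 6 members left out were 3 of RAP2A and 1 each of RAP2B, RAPGEF1 and RAPGEF2.

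In R 4.3.3, limma 3.58.1 (with statmod 1.5.0) fitted group means, taking the 4 bulk populations as a random block (correlation -0.0249); tests were two-sided with Benjamini-Hochberg adjustment over all rows. The block did not make the calls stricter: without it limma called 618 probe sets at 24 h and 37 at 12 h, against 751 and 45 with it. The comparison between populations used 8 means without a block. The code was tested on simulated data. Replicates were inductions of 2 populations per vector, so p-values measure the spread among arrays more than that among independently made populations.

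The members and lists were chosen with earlier results of these data known. All member probe sets are named. Of the other lists, called genes and the gene of largest statistic in each role at 24 h are named, and the 5 genes most correlated with RAP1B; SKAP2, ITGB2, RALA, RHEB and RRAS2 were chosen after their values were seen. Alternatives covered the block, the replicate number, the unit, single populations, scaling, pseudocount, filter, rows, ACTB ratio and each array left out.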

Additional observations from a re-analysis of the deposited data

Results flagged for a closer look

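Single arrays that stood apart from the other 5 of their group were sought over 26 member probe sets and 4 groups by Dixon's criterion at 95% for 6 values. Of 104 groups 9 had such an array, and chance flags about 1 in 20 groups, or 5.2 here. RAP1B had 1, the control array of population A induction 2 at 12 h, which was highest at 18449 while the others ran between 14584 and 15804. RAP2B 213923_at had a lowest value of 1507 on miR-28 A3 at 24 h, against 2063 to 2213 on the others. RAPGEF2 203096_s_at was highest at 897 on control A3 at 12 h, against 627 to 692, and RAPGEF6 230078_at was highest at 3928 on control B2 at 24 h, against 3041 to 3312; the last array had the raised ACTB ratio.

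The other 5 were dim probe sets with single low values. RAPGEF2 238176_at had 28.9 on miR-28 A2 at 12 h (others 132 to 216), 15.7 on miR-28 A3 at 24 h (88.4 to 159) and 19.1 on control B2 at 24 h (110 to 196). SIPA1L1 202254_at had 5.07 on control B2 at 12 h (113 to 192) and 58.1 on miR-28 B1 at 24 h (152 to 261). Neither of these probe sets was called in any comparison.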

How the results depend on the processing

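No value changed sign where it was called in either fit. The 2 calls at 24 h became 0 with only population B, with only population A and with population means as the unit, where limma called 1, 2 and 0 of all probe sets, against 751 with all arrays. They became 1, RAP1B, without the filter on low values, with the stricter filter and with 1 probe set a gene, and 1 to 2 with single arrays left out. RAPGEF1 226389_s_at was not tested under the stricter filter, since its mean of 8.19 lay below 8.671. Nor was it tested with 1 probe set a gene, since it was not the brightest of its gene. At 12 h the count of 0 became 1, RAP1A 228548_at, with the stricter filter, and stayed 0 to 0 with single arrays left out, as did the counts for the interaction, for time in control cells and for the populations. The count of 1 for time in miR-28 cells became 0 with the replicate block, population means, either population alone, no filter or 1 probe set a gene, and 0 to 1 with single arrays left out. With 1 probe set a gene, RAP2A 225585_at was not tested, since 221830_at was brighter. Of the pathway genes 1 was called under the stricter filter at 12 h (ITGB2), where leaving out arrays gave 0 to 0, and at 24 h 1 (RASSF5) with median centring, the stricter filter or 1 probe set a gene, and 0 to 1 with arrays left out, called without miR-28 A1 at 24 h. Of the RAS family 0 to 1 were called with arrays left out, NKIRAS2 without miR-28 B1 at 12 h. Apart from probe sets that a setting left out, the causes of these changes were not tested. Over all probe sets 302 were called at 24 h without the filter and 1166 with the stricter one, and at 12 h 45, against 26 with the replicate block, 21 without the filter and 107 with the stricter one. Single arrays left out gave 21 to 58 at 12 h, with 21, 29 and 26 without control A2, A1 or B1 and 25 without miR-28 A3, all at 12 h, and 524 to 827 at 24 h. Median centring gave 425 rises and 198 falls at 24 h, against 348 and 403. It shifted the median change of all probe sets by 0.06 at 24 h, by 0.1 with time in miR-28 cells and by 0.12 between populations.

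The replicate numbers gave no pairing, with correlations of same-numbered arrays between -0.11 and 0.06. With the replicate block the differences of RAP1B from RAP1A (-0.45), RAP2A (-0.56) and RAP2C (-0.67) at 24 h each had an exact permutation adjusted p of 0.05, where 6 pairs allow no p under 0.0312, and both calls at 24 h in limma were kept. Quantile normalization called the 12 h differences from RAP1A (-0.26, adjusted p 0.00433) and RAP2A (-0.22, 0.0485). At 24 h population B alone gave -0.87 for RAP2C, and population A alone -0.48 for RAP2C and -0.78 for RAP2B. In population B at 24 h RAP1B changed by -0.67 and RAP2B 227897_at by -0.76. On that probe set RAP1B was thus not lower by more than RAP2B in that population. The other tested RAP2B probe sets gave 0.18 (213923_at) and 0.17 (238622_at) there, so against them RAP1B was lower by more. With other RAP1A probe sets the difference at 24 h passed on 202362_at (-0.76) and not on 1555339_at (-0.42) or 228548_at (-0.23), and that from RAP2B passed with 213923_at (-0.69 at 24 h, -0.30 at 12 h). With single arrays left out the differences at 24 h ran from -0.52 to -0.38 for RAP1A, -0.63 to -0.49 for RAP2A, -0.53 to -0.25 for RAP2B and -0.73 to -0.62 for RAP2C, and at 12 h from -0.42 to -0.28, -0.26 to -0.16, -0.40 to -0.26 and -0.14 to -0.01. The planned second probe set of RAP1B was not run, since RAP1B had 1. Array signal limits the dim probe sets most: SIPA1L1 and RAPGEF2 had standard errors up to 0.49.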

Other observations

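A probe set annotated to both RAP2A and RAP2B, 214487_s_at, was left out of the member counts because its signal cannot be given to 1 gene. It averaged 569 ± 80.5 in miR-28 and 610 ± 138 in control cells at 24 h, and 495 ± 160 and 540 ± 128 at 12 h (SD, n = 6 each). The changes were -0.08 ± 0.19 and -0.15 ± 0.19 (limma adjusted p 0.893 and 0.929), so neither passed.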
